A study of Mus musculus with 6 samples.

Results

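The genes described here are 10 markers by which mesenchymal and skeletal progenitors of bone and marrow are commonly recognised: Thy1, Cd200, Ly6a, Cd44, Pdgfra, Pdgfrb, Ngfr, Nes, Prrx1 and Grem1. They were taken by name, and each was represented by the probe set that carries that symbol alone in the platform annotation and has the highest mean over the 6 arrays. Of the 10 genes, 9 had such a probe set, 1 each, among 19938 genes in all; Ly6a had none in the annotation used here and was not analysed. Mouse bone marrow cells that lacked CD45 (leukocytes) and Ter119 (red cell precursors) and carried the ectoenzyme CD73 were separated by CD105, or endoglin, into 3 CD73+CD105+ samples and 3 CD73+CD105- samples, and the RNA of each was put on 1 array. Both populations came from dissociated primary marrow and were sorted straight into lysis buffer; the strain, age and sex of the mice and any pooling of animals are not stated in the labels. The labels call the samples of a group biological replicates without naming animals, so a p-value here reflects only the spread among those samples, which may in part be technical. The levels are log2 values after RMA, a background correction and quantile normalization that combines the probes of a probe set. A difference is CD73+CD105+ minus CD73+CD105- on that log2 scale, and array values are given in the order of replicates 1, 2 and 3.

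Mesenchymal progenitors of bone give rise to cartilage, bone, fat and the reticular stroma of marrow. No single protein marks them, so they are sorted by combinations of surface proteins: THY1 (CD90), CD200, CD44 and the PDGF receptors. Some of these are shared with other cells of marrow. THY1 is also on T cells, PDGFRB on pericytes, NGFR (CD271) on Schwann cells, and CD200 and nestin in vessels. In mouse bone, PRRX1 marks limb mesenchyme and its descendants, and GREM1, a secreted antagonist of bone morphogenetic proteins (BMPs), marks skeletal stem cells near the growth plate.

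Eng, which encodes CD105, averaged 8.06 ± 0.25 in CD73+CD105+ cells and 6.30 ± 0.21 in CD73+CD105- cells (SD, n = 3 each), and Nt5e, the gene of CD73, averaged 10.37 ± 0.08 in the CD73+CD105+ and 10.63 ± 0.12 in the CD73+CD105- samples. Ptprc, the gene of CD45, averaged 4.70 in CD73+CD105+ samples and 4.71 in CD73+CD105- samples. Both Ptprc means were under 6.01, the level below which 95% of 1194 odorant and pheromone receptor genes lay. This receptor gene percentile serves as a rough level of background, since no detection calls were used. Array medians lay between 6.27 and 6.35. One feature of the arrays touches every value below. The average of the CD73+CD105+ and CD73+CD105- replicate 1 arrays almost equalled, gene by gene, that of the remaining 4 arrays (SD of the gap over genes 0.0423, against 0.122 or more for the 8 other pairs of a CD73+CD105+ and a CD73+CD105- array). No label describes this relation, and the counts of genes past the threshold are therefore also given with a term for replicate 1 and without the replicate 1 arrays.

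All 9 markers had a higher mean in CD73+CD105+ cells, by 0.06 to 0.45, which is 1.04-fold to 1.36-fold. None passed the test over all genes (0 of 9 at a Benjamini-Hochberg adjusted p under 0.05 in limma, where 1.82% of the 19938 genes passed, 1.35% higher and 0.466% lower). At an unadjusted p under 0.05 there were 5 of 9, namely Pdgfrb, Pdgfra, Cd44, Nes and Cd200, against 17.7% of all genes. The same 5 genes had all 3 CD73+CD105+ arrays above all 3 CD73+CD105- arrays, which held in that direction for 10.7% of all genes. The median difference was 0.29 over the 9 markers and -0.02 over all genes, of which 44.4% had a difference above 0. The markers were taken by name but with earlier results of these data known, so all genes are not an independent yardstick. An exact permutation test of 1 gene with 3 arrays against 3 cannot give a two-sided p below 0.1. In these bulk samples fewer cells of a type and less RNA per cell cannot be told apart.

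**Figure D1:**
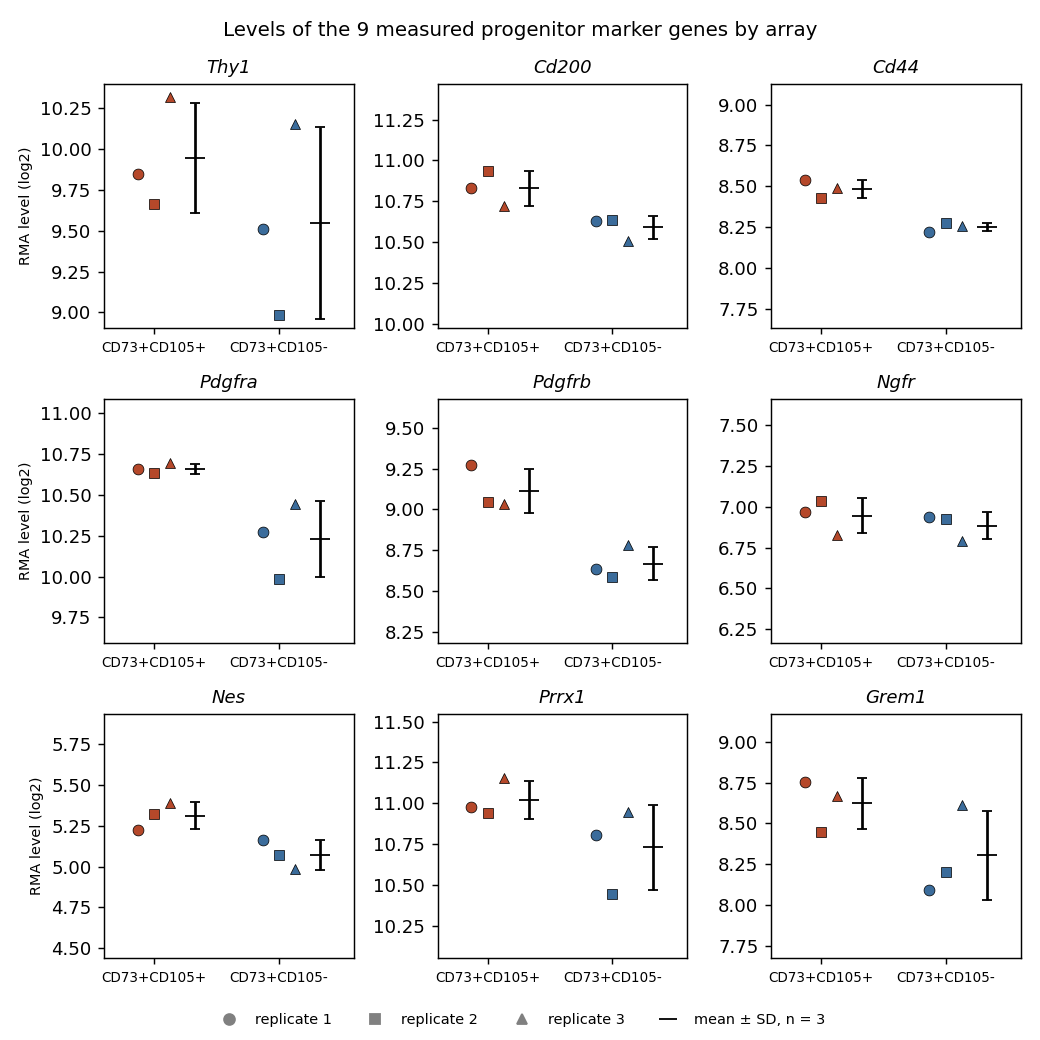
RMA level (log2) of the 9 measured markers in each array, CD73+CD105+ left and CD73+CD105- right in each panel, with symbols for replicates 1 to 3 and bars for the mean ± SD (n = 3); every panel spans the same number of log2 units. The groups are apart in Cd200, Cd44, Pdgfra, Pdgfrb and Nes and overlap in Thy1, Ngfr, Prrx1 and Grem1.

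Among the surface proteins, Thy1 encodes a small lipid-anchored glycoprotein that binds integrins. Its level was 9.85, 9.67 and 10.32 in CD73+CD105+ cells, against 9.51, 8.98 and 10.16 in CD73+CD105- cells. Replicate 3 was high and replicate 2 low in both populations, and the groups overlapped. The difference of 0.40 (SE 0.30, 95% interval -0.31 to 1.10, adjusted p = 0.538) was smaller than the range within the CD73+CD105- arrays, 1.18. The interval reaches from 0.81-fold to 2.14-fold, the widest of the 9 markers.

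Cd200 encodes a glycoprotein that restrains myeloid cells through its receptor. It stood at 10.83, 10.93 and 10.72 in CD73+CD105+ cells, against 10.63, 10.63 and 10.51 in CD73+CD105- cells. Every CD73+CD105+ array was above every CD73+CD105- array, by a gap of 0.09. The difference was 0.24 (SE 0.08, 95% interval 0.05 to 0.43) with an adjusted p of 0.194, which misses the threshold.

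Cd44 encodes the main cell surface receptor for hyaluronan. Its values were close to each other within each population, at 8.54, 8.43 and 8.49 in CD73+CD105+ cells and 8.22, 8.27 and 8.26 in CD73+CD105- cells. The groups did not overlap, with a gap of 0.15 that exceeded the range within either group (0.108 among CD73+CD105+ arrays, 0.053 among CD73+CD105- arrays). The difference of 0.23 (SE 0.07, 95% interval 0.08 to 0.39, adjusted p = 0.132) is a 1.18-fold higher mean, with an interval that ends at 1.31-fold. The precision for Cd44 was therefore better than for Thy1, whose SE was 0.30.

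The 3 growth factor receptors held both the largest differences of the 9 markers (Pdgfrb and Pdgfra) and the smallest (Ngfr). Pdgfrb encodes the receptor tyrosine kinase for PDGF-B and PDGF-D that is typical of pericytes and stromal cells. Its level was 9.27, 9.04 and 9.03 in CD73+CD105+ cells, against 8.64, 8.59 and 8.78 in CD73+CD105- cells. The groups were apart by 0.25, and the CD73+CD105+ replicate 1 array was the highest. The difference of 0.45 (SE 0.09, 95% interval 0.23 to 0.67) had an adjusted p of 0.0687, and 3.52% of all genes had a larger one. It was 0.63 in the replicate 1 arrays alone and 0.35 in the means of replicates 2 and 3.

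Pdgfra encodes the related receptor for PDGF-A and PDGF-C, a marker of mesenchymal cells from the embryo onwards. The CD73+CD105+ arrays gave 10.66, 10.64 and 10.69, against 10.27, 9.99 and 10.44 in the CD73+CD105- arrays. CD73+CD105+ cells varied little (range 0.058) and CD73+CD105- cells more (range 0.458), with replicate 2 the lowest. The groups did not overlap, and the difference of 0.43 (SE 0.12, 95% interval 0.15 to 0.70, adjusted p = 0.124) is a 1.35-fold higher mean.

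Ngfr encodes the low-affinity neurotrophin receptor, used as CD271 to enrich human marrow stromal cells. It was at 6.97, 7.04 and 6.83 in CD73+CD105+ cells, against 6.94, 6.93 and 6.79 in CD73+CD105- cells. Replicate 3 was the lowest array in both populations and the groups overlapped. The difference of 0.06 (SE 0.08, adjusted p = 0.762) had a 95% interval of -0.14 to 0.26, so a change beyond 1.20-fold upward or 0.91-fold downward lies outside it. Among all genes, 29.9% had a larger difference than Ngfr.

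**Figure D2:**
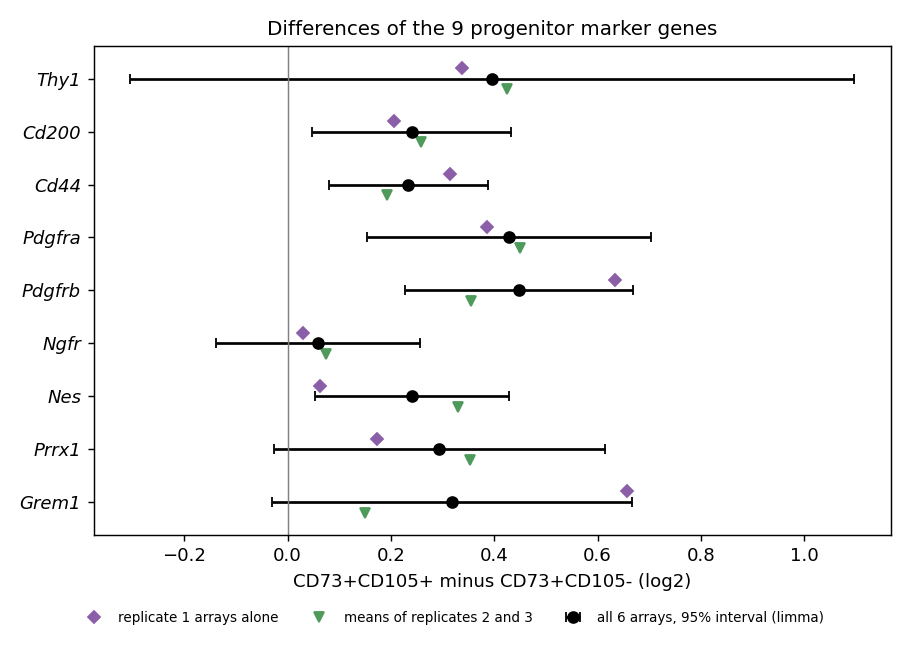
Difference of each marker (CD73+CD105+ minus CD73+CD105-, log2) over all 6 arrays with its 95% interval from limma (black), in the replicate 1 arrays alone (diamonds) and in the means of replicates 2 and 3 (triangles). All points lie above 0, and the intervals of Cd200, Cd44, Pdgfra, Pdgfrb and Nes do not include 0.

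Nes encodes nestin, an intermediate filament protein of neural stem cells that in mouse marrow also marks perivascular stroma and arterioles. Its level was 5.23, 5.32 and 5.39 in CD73+CD105+ cells, against 5.16, 5.07 and 4.98 in CD73+CD105- cells. All arrays were below the receptor gene percentile of 6.01, where RMA compresses differences, so a level near background cannot be told from absence. The groups were apart by 0.06, and the difference of 0.24 (SE 0.08, adjusted p = 0.184) was 0.06 in the replicate 1 arrays and 0.33 in the means of replicates 2 and 3.

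Prrx1 encodes a homeobox transcription factor of limb and craniofacial mesenchyme. It was at 10.98, 10.94 and 11.16 in CD73+CD105+ cells, against 10.81, 10.44 and 10.95 in CD73+CD105- cells. The CD73+CD105- replicate 3 array reached the lowest CD73+CD105+ array, so the groups just overlapped. The difference of 0.29 (SE 0.14, 95% interval -0.03 to 0.61, adjusted p = 0.32) was smaller than the range within CD73+CD105- cells, 0.503.

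Grem1 stood at 8.75, 8.45 and 8.67 in CD73+CD105+ cells, against 8.09, 8.20 and 8.61 in CD73+CD105- cells. The CD73+CD105- replicate 3 array was within the CD73+CD105+ values, and the groups overlapped. The difference of 0.32 (SE 0.15, 95% interval -0.03 to 0.67, adjusted p = 0.321) was 0.66 in the replicate 1 arrays and 0.15 in the means of replicates 2 and 3.

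With a term for replicate 1, and likewise without the replicate 1 arrays, 0 of the 9 markers passed over all genes (5 and 3 at an unadjusted p under 0.05). Of all 19938 genes, 101 and 29 passed in these settings, and 2461 and 1915 had an unadjusted p under 0.05. Without the replicate 1 arrays the difference was 0.43 for Thy1 (95% interval -0.64 to 1.49), 0.26 for Cd200 (-0.05 to 0.57) and 0.19 for Cd44 (-0.06 to 0.45). It was 0.45 for Pdgfra (0.02 to 0.88), 0.35 for Pdgfrb (0.07 to 0.64) and 0.07 for Ngfr (-0.24 to 0.39). For Nes it was 0.33 (0.07 to 0.59), for Prrx1 0.35 (-0.13 to 0.84) and for Grem1 0.15 (-0.28 to 0.58). The intervals of Pdgfra, Pdgfrb and Nes then lay above 0, and those of Cd200 and Cd44 included it.

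The markers did not vary alike from array to array within a population. In CD73+CD105- cells Thy1, Pdgfra, Pdgfrb and Prrx1 were highest in replicate 3 and lowest in replicate 2, an order found in 17.9% of all genes. In CD73+CD105+ cells Thy1, Pdgfra and Prrx1 had that order too (16.9% of all genes), and 5.51% of all genes had it in both populations. Cd200 and Ngfr were instead lowest in replicate 3 in both populations. Their shared order in CD73+CD105+ cells was found in 21.2% of all genes. In CD73+CD105- cells the order of Cd200 was found in 17.4% and that of Ngfr in 19.9%. The size of the spread between arrays differed: the CD73+CD105- arrays ranged over 1.18 for Thy1, over 0.503 for Prrx1 and over 0.053 for Cd44.

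**Figure D3:**
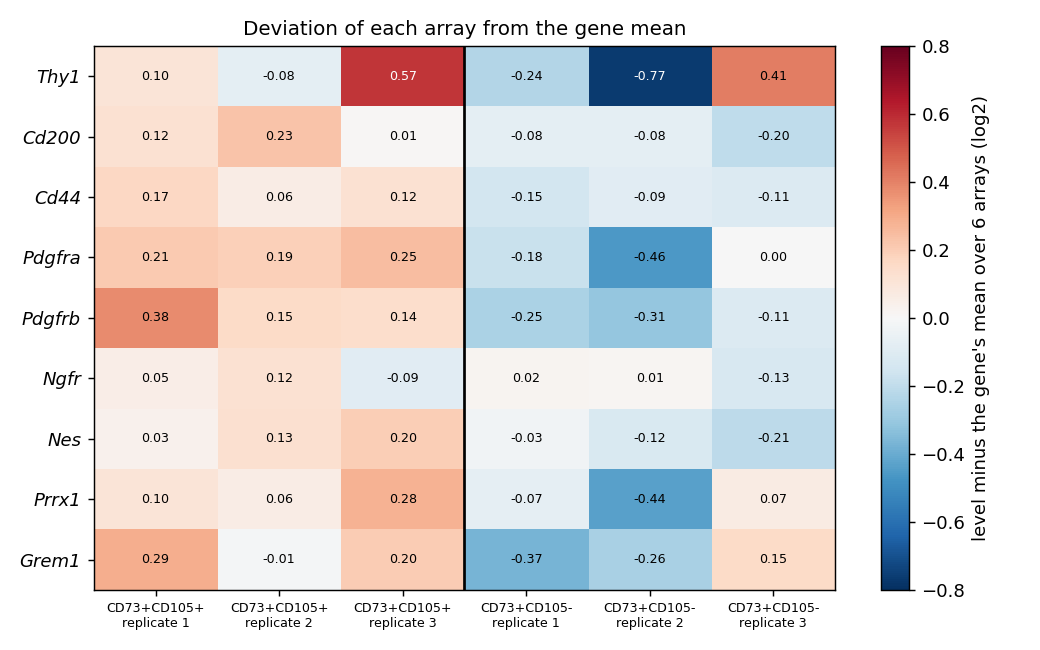
Level of each marker in each array minus that gene's mean over the 6 arrays (log2), red above and blue below the mean, CD73+CD105+ arrays left of the line and CD73+CD105- arrays right of it. Thy1 is 0.57 above its mean in CD73+CD105+ replicate 3 and also above it, by 0.41, in CD73+CD105- replicate 3.

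For the 3 markers with the largest differences, the genes with the most similar array values were found by the root mean square distance of gene-centred levels over the 6 arrays, among 17997 other protein-coding genes. Nearest to Thy1 were Kazald1 (distance 0.09), Col14a1 (0.09) and Ptn (0.11). Col14a1, a fibril-associated collagen, stood at 10.23, 9.87 and 10.65 in CD73+CD105+ cells, against 9.62, 9.19 and 10.32 in CD73+CD105- cells, with the same high replicate 3 and low replicate 2 as Thy1. Nearest to Pdgfra were Gng8 (0.03), Tmem212 (0.04) and Slfn3 (0.04), and nearest to Pdgfrb were Med20 (0.04), Aifm2 (0.04) and Sft2d2 (0.04). Of the other markers, Prrx1 was the one nearest to Pdgfra (0.09, place 70 of the 17997) and also the one nearest to Thy1 (0.25, place 185). The marker nearest to Pdgfrb was Pdgfra (0.12, place 315), while Thy1 was far from Pdgfrb (0.37, place 15346). The measure takes in both the group difference and the spread between replicates, and all genes share the same 6 arrays.

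Of the genes that act with these markers or serve beside them, 10 of 113 measured in 10 lists rose and 0 fell (limma, adjusted p under 0.05), where 1.35% of all genes rose and 0.466% fell. The lists were chosen with earlier results of these data known, so the excess over all genes may partly come from that choice. The 10 were 4 of 16 other surface markers of progenitors, 3 of 19 mesenchymal transcription factors, and 1 each of 10 secreted BMP antagonists, 13 BMP ligands, receptors and targets, and 9 Ly6 family genes. None passed among 10 PDGF ligands and signalling partners, 6 neurotrophins and receptors, 11 genes of hyaluronan and other CD44 ligands, 10 partners of Thy1 and Cd200, and 9 intermediate filament genes. At an unadjusted p under 0.05 these 5 lists held 1, 3, 4, 1 and 3 genes, where 17.7% of all genes had one. With a term for replicate 1, Cd34, Vcam1 and Lepr were the 3 of the 10 that passed, and without the replicate 1 arrays 0 did. Without those arrays 24 of 113 had an unadjusted p under 0.05, against 1915 of all 19938 genes. Leaving out CD73+CD105+ replicate 1 left 3, CD73+CD105+ replicate 3 left 4 and CD73+CD105- replicate 1 left 4.

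Among the other surface markers the median difference was 0.45. Cd34, a surface mucin found on vessels and on some stromal progenitors, was at 10.23, 9.93 and 10.13 in CD73+CD105+ cells, against 8.51, 8.58 and 8.86 in CD73+CD105- cells, which is higher by 1.45 (SE 0.12, adjusted p = 0.00264). In Vcam1, which lets blood cells adhere to reticular stroma and vessels, the difference was 1.30, and in Lepr, the leptin receptor by which reticular stroma is defined, 0.93 (adjusted p = 0.00544 and 0.00869). Mcam, or CD146, of perivascular cells and endothelium, differed by 0.58 (adjusted p = 0.0208). Each of the 4 differences was larger than that of any of the 9 markers. These 4 were named because they passed the threshold, and no marker did, so the selection itself favours larger differences. Among the transcription factors listed beside Prrx1, Meox1, a homeobox gene of somite derivatives, rose 2.12-fold (adjusted p = 0.0316), Ebf3, which maintains reticular stroma in mouse marrow, rose 1.61-fold (0.0129) and Osr1, of limb and kidney mesenchyme, rose 1.49-fold (0.0341). The median of the 19 factors was 0.23.

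**Figure D4:**
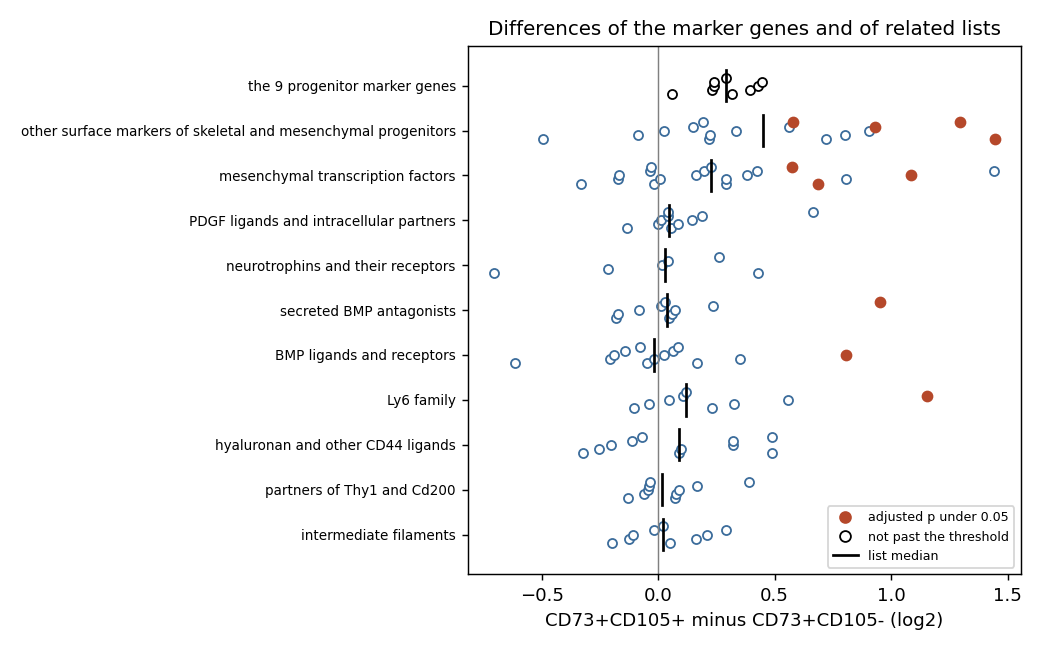
Difference (CD73+CD105+ minus CD73+CD105-, log2) of each of the 9 markers (top row) and of each gene in 10 related lists; filled points have an adjusted p under 0.05, open points do not, and the vertical line in each row is the median. The 10 filled points lie between 0.57 and 1.45, to the right of all 9 markers, none of which passed the threshold that fills a point.

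For the ligands of the PDGF receptors, Pdgfd, which binds PDGFRB, was at 7.64, 7.27 and 7.92 in CD73+CD105+ cells and 6.96, 6.46 and 7.40 in CD73+CD105- cells. The groups overlapped, and its difference of 0.67 did not pass (adjusted p = 0.239). The adaptor Pik3r1 differed by 0.19 (adjusted p = 0.37), and the list median was 0.05. In the neurotrophin list Sort1, a co-receptor of NGFR, differed by -0.71 and Ntrk3, the receptor of neurotrophin-3, by 0.43 (adjusted p = 0.0854 and 0.0992), with Ntrk3 below the receptor gene percentile.

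Around Grem1, Fst, a secreted binder of activins and some BMPs, was at 8.18, 8.07 and 8.13 in CD73+CD105+ cells, against 7.17, 6.87 and 7.49 in CD73+CD105- cells. Fst rose by 0.95 (SE 0.15, adjusted p = 0.0298), and Bmp4, a ligand that gremlin binds, by 0.80 (SE 0.11, adjusted p = 0.0176). The median difference was 0.04 for the antagonists and -0.02 for the BMP list. Among relatives of Ly6a, Ly6e rose 2.23-fold, with 10.93, 10.50 and 10.56 in CD73+CD105+ cells, against 9.24, 9.76 and 9.53 in CD73+CD105- cells (adjusted p = 0.0205).

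For the partners of CD44, THY1 and CD200, Tnfaip6, a hyaluronan-binding protein, differed by 0.49 (adjusted p = 0.0928) and Vcan, the proteoglycan versican, also by 0.49 (0.381). Adgre5, or CD97, an adhesion receptor that binds THY1, was at 9.22, 9.15 and 9.07 in CD73+CD105+ cells, against 8.72, 8.72 and 8.83 in CD73+CD105- cells (adjusted p = 0.0514). Its groups did not overlap. Itgb5, an integrin chain, differed by 0.17 (adjusted p = 0.405). Of the intermediate filament genes, Prph, or peripherin, differed by 0.29 and Vim, the vimentin of mesenchymal cells, by 0.21 (adjusted p = 0.172 and 0.149).

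Some markers of other cell types also differed between the populations. The mean level of 12 endothelial genes was 7.84 to 8.13 in CD73+CD105+ arrays and 5.83 to 6.06 in CD73+CD105- arrays; 11 of the 12 rose, and 6 were below the receptor gene percentile in CD73+CD105- cells. Eng, the gene of the sort marker CD105, is among the 12 and among the 11, so the sort itself selects for its rise. With a term for replicate 1 the endothelial count was 9, with Eng kept and Kdr and Tie1 lost. Without the replicate 1 arrays it was 6, with Eng lost. Of 7 arteriolar genes 1 rose, Cxcl12, which did not pass in either of those settings (2 of 7 at an unadjusted p under 0.05 in both). The arteriolar means were 6.88 to 6.96 in CD73+CD105+ arrays and 6.49 to 6.69 in CD73+CD105- arrays, and Sox17, Gja4, Gja5 and Bmx were below the percentile in both populations. Of 10 pericyte and smooth muscle genes 3 rose, with means of 7.36 to 7.56 in CD73+CD105+ arrays and 6.98 to 7.03 in CD73+CD105- arrays. In this list 2 genes had a difference below 0. The pericyte gene Cspg4 was 1 of them, at -0.47 with no overlap of the groups (limma, adjusted p = 0.0634). Of the 3 genes that rose, Tagln passed with the term for replicate 1 and Rgs5 and Abcc9 did not (adjusted p = 0.0642 and 0.0546). Of 7 reticular stroma genes 5 rose (8.40 to 8.61 in CD73+CD105+ and 7.44 to 7.85 in CD73+CD105- arrays), of which Lepr passed with that term and Kitl, Ebf3, Adipoq and Cxcl12 did not (adjusted p = 0.052, 0.0541, 0.0821 and 0.10). The lists share genes: Cxcl12 is counted as arteriolar and as reticular, and Lepr and Ebf3 are also among the 10 related genes that rose. Without the replicate 1 arrays 0 of the 10 pericyte and 0 of the 7 reticular genes passed. At an unadjusted p under 0.05 there were 5 of each list, against 1915 of all 19938 genes. Cd200, Nes, Pdgfrb, Cd34, Vcam1 and Mcam are known from one or more of these cell types, and the part of such cells in the differences was not tested.

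For T and NK cells, which carry THY1, 0 of 8 genes passed (0 at an unadjusted p under 0.05), with means of 5.41 to 5.47 in CD73+CD105+ arrays and 5.43 to 5.56 in CD73+CD105- arrays, and 7 of the 8 were below the receptor gene percentile in both. For Schwann and glial cells, which carry NGFR and can carry nestin, 0 of 6 passed (2 at an unadjusted p under 0.05), with means of 6.35 to 6.41 in CD73+CD105+ arrays and 6.49 to 6.59 in CD73+CD105- arrays. These list means lean on S100b, which averaged 9.78 among CD73+CD105+ samples, against 10.26 for CD73+CD105- samples. Sox10 came next, with 6.85 and 6.91. Cdh19 and Gfap were below the percentile in both populations, and Foxd3 only in CD73+CD105+ cells. Of 9 further haematopoietic genes 0 passed (3 at an unadjusted p under 0.05), and 7 of them, Ptprc, Kit, Cd48, Spi1, Itgam, Csf1r and Cd79a, were below the percentile in both populations. Beside these lists, 1.82% of all genes passed and 17.7% had an unadjusted p under 0.05.

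Markers of skeletal cells that progenitors give rise to were present in both populations. Over all 19938 genes, 8854 had a difference above 0 and 11084 one below, and 17.7% had an unadjusted p under 0.05. The 10 cartilage genes averaged 10.84 to 11.19 in CD73+CD105+ arrays and 11.22 to 11.43 in CD73+CD105- arrays, and all 10 had a difference below 0, but 0 passed (5 at an unadjusted p under 0.05). The 6 osteoblast genes averaged 9.94 to 10.08 in CD73+CD105+ arrays and 9.88 to 10.15 in CD73+CD105- arrays, with 0 past the threshold (1 at an unadjusted p under 0.05). The 8 fibroblast and periosteum genes averaged 9.71 to 10.05 in CD73+CD105+ arrays and 9.20 to 9.77 in CD73+CD105- arrays. As with the progenitor markers, all 8 had a difference above 0 and 0 passed (4 at an unadjusted p under 0.05), with a median of 0.43. The chondrocyte median, -0.24, had the opposite sign. In the T and NK cell, Schwann, haematopoietic, osteoblast, cartilage and fibroblast lists 0 genes passed with the term for replicate 1 (0, 1, 2, 1, 3 and 4 at an unadjusted p under 0.05) and 0 without the replicate 1 arrays (0, 2, 3, 1, 1 and 2). In the same settings 2461 and 1915 of all 19938 genes had an unadjusted p under 0.05.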

How the data were processed

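Total RNA of sorted cells was labelled with biotin and hybridised to 1-colour arrays, per the labels' protocols. The authors deposited log2 values for each probe set after RMA, per the submitters' processing notes. Neither a software version nor a genome build is named in those notes, so no coordinates are printed. Of 35556 probe sets, 21789 had 1 gene symbol, 1621 several and 12146 none here; 21698 were matched by Entrez ID to a reference gene table and 0 symbols changed. For each gene the probe set with the highest mean was kept (19938 genes). Groups and replicate numbers came from the titles.

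Differences were tested with limma 3.58.1 in R 4.3.3 (lmFit and eBayes, two-sided, no block) on all 6 arrays, with Benjamini-Hochberg adjustment over all genes and a threshold of 0.05; no filter on dim genes was applied. The script was tested on simulated data. The median standard error was 0.0942 for the 9 markers and 0.0928 for all genes. Same-numbered arrays deviated from their group means with correlations of -0.88, 0.01 and 0.10 across genes. The replicate 1 arrays almost balanced the other 4 gene by gene, which by itself pushes the first value towards -1. These correlations therefore cannot decide whether the numbers pair samples. No label states a pairing, and the reported fit used none. From each related list up to 4 genes past the threshold were named, or the 2 with the largest difference. The markers and lists were chosen with earlier results of these data known. Alternatives covered normalization, a dim filter, array weights, an intensity trend, probe sets, terms for replicates and arrays left out; splitting the replicate 1 arrays from the rest was added after seeing the data.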

Additional observations from a re-analysis of the deposited data

How the results depend on the processing

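All 9 markers kept a difference above 0 under each of 15 alternatives (134 values; Nes was not tested under the dim filter). The replicate block, replicate 1 term, dim filter, intensity trend and probe set mean leave these differences unchanged by construction. The sign was thus open only in the remaining settings. No marker passed under 14 of the 15 alternatives. With array weights 3 of 9 passed, Pdgfrb (adjusted p = 0.0217), Cd44 (0.0453) and Pdgfra (0.0456); this setting gave the CD73+CD105+ and CD73+CD105- replicate 1 arrays weights of 2.44 and 1.61 and the other 4 arrays 0.612 to 0.807, and called 1331 genes in all. Over all alternatives the adjusted p ran from 0.0217 to 0.448 for Pdgfrb, 0.0456 to 0.502 for Pdgfra and 0.0453 to 0.614 for Cd44. Of all genes, 363 passed in the reported fit, 215 with the replicate block, 101 with a term for replicate 1, and 29 to 293 with arrays left out, 29 being without both replicate 1 arrays. Single arrays that lowered the count by over 1.5 times were CD73+CD105+ replicates 1 (86) and 3 (169) and CD73+CD105- replicates 1 (87) and 2 (150). Of the related genes 10 passed in the reported fit and 10 with the replicate block, of which 7 are shared: Ebf3 (adjusted p = 0.0512), Mcam (0.0611) and Osr1 (0.0945) lost the call under the block, and Pdgfd (0.0472), Cd248 and Ebf1 gained it. Their number was 3 with the term for replicate 1, 23 with array weights and 0 to 11 with arrays left out. The replicate block gave 0 markers past the threshold, and among the other cell type lists it ended the calls of Tie1, Abcc9 and Ebf3. Under the block 6 of 9 markers had an unadjusted p under 0.05, against 2742 of all 19938 genes. The 95% intervals of Thy1 (0.09 to 0.70) and Prrx1 (0.03 to 0.55) then lay above 0, and that of Nes included it (-0.02 to 0.50). Centring arrays on their medians gave 250 higher and 107 lower genes, against 270 and 93. The cause of these shifts was not tested. The number of arrays limits precision, and Nes is limited by a level near background.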
